A study of Mus musculus with 12 samples.

Results

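RNA-seq libraries of short-lived effector cells that lack Rroid2 were compared between day 14 and day 7 after infection. The comparison used 4 of the 12 libraries of the series, 2 from each day, and 14460 of the 55421 genes in the count table, which were those that passed a filter on low counts. The cells were OT-I cells, mouse CD8 T cells with a transgenic receptor for a peptide of ovalbumin. They were transferred into host mice that were infected with LM-OVA, a strain of Listeria monocytogenes that makes ovalbumin, and were sorted from the spleen as SLEC or, on day 14, also as MPEC, memory precursor effector cells. The KO groups were labelled Rroid2 KO and the WT groups Rroid2 WT; all mice were infected, and no uninfected or untreated group was included. The KO SLEC groups of day 7 and day 14 are the subject, the KO MPEC group of day 14 is given as a reference for memory precursors, and the WT SLEC groups of day 7 and day 14 were used to ask whether the change differed between genotypes. The labels do not say how the deletion was made, how old the mice were or which gates were used. Nor do they say whether the 2 libraries of a group came from separate mice. The low-count filter and the spread behind the p-values were taken from all 12 libraries in 6 groups. That spread may be technical.

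After an acute infection, CD8 T cells divide rapidly, acquire granzymes, cytokines and receptors for inflamed tissue, and then contract. SLEC are the KLRG1-high, IL-7 receptor-low fraction of the effector population, of which most die during contraction, whereas MPEC keep the IL-7 receptor and hold most precursors of long-lived memory cells. The transcription factors T-bet, ZEB2 and BLIMP1 are known for the SLEC state, and TCF1, LEF1, BACH2 and BCL6 for memory and its precursors.

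The 4 libraries held between 7603551 and 13533933 counts, and the day 14 libraries were the shallower ones. The sorted cells matched their label on markers. The 10 CD8 T cell identity genes summed to 5198 and 6447 CPM (counts scaled to library size with edgeR's TMM factors) on day 7 and to 5713 and 5783 CPM on day 14. Klrg1, the inhibitory receptor that defines SLEC, stood at 219 and 249 CPM on day 7 and 154 and 157 on day 14, against 1.33 and 3.74 CPM in the KO MPEC libraries. Il7r, the IL-7 receptor chain that marks memory precursors, stood at 22.9 and 18.3 CPM on day 7 and 71.7 and 42.7 on day 14, against 833 and 1037 CPM in KO MPEC. Among markers of other cells, 17 B cell genes summed to at most 87.8 CPM and 12 neutrophil genes to at most 3.27 CPM. The 7 CD4 T cell genes summed to at most 111 CPM, with 2 of 6 tested called higher and 2 lower. For the 6 gamma delta T cell genes the sum was at most 95.2 CPM, with 1 of 3 tested called higher. The 11 erythroid genes were uneven, with 109 and 30.3 CPM on day 7 and 13.7 and 0 CPM on day 14, and 5 of the 8 tested were called lower. The 9 NK cell genes summed to 116 and 148 CPM on day 7 and 250 and 140 CPM on day 14, with 1 of 8 called higher. No gene in the table carries the symbol Rroid2, so the deletion itself could not be checked.

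Between day 7 and day 14, KO SLEC lost most of their transcripts of mitosis, lost part of their granzyme, S100, respiratory chain and proteasome transcripts, and gained transcripts of some quiescence and memory regulators, of Bcl2 and of clock genes. Of the 14460 genes tested, 2487 (17.2%) were called at an adjusted p under 0.05 (edgeR's quasi-likelihood test, Benjamini-Hochberg adjustment). Of these, 1114 (7.70% of the genes tested) were higher on day 14 and 1373 (9.50%) were lower. These shares are the background for every count of a gene list below. The falls were the larger changes: 848 genes fell and 429 rose by more than 2-fold, and 156 fell and 29 rose by more than 16-fold. The median log2 change over all genes tested was -0.01. In 8303 of the 14460 genes tested, and in all 2487 called, both libraries of one day lay above both of the other. Such a separation of the days therefore adds nothing to a call. Replicates differed by more than counting noise, with a chi-square per degree of freedom of 26.5 on day 7 and 18.7 on day 14. A lower level in these bulk libraries can come from fewer cells with the transcript or from less of it per cell, and these cannot be told apart. The number of calls rested strongly on the number of libraries: leaving out 1 KO SLEC library lowered it to between 834, without day 14 replicate 2, and 1786, without day 7 replicate 1. Genes whose call was lost in such an omission are named with the highest edgeR adjusted p over the omissions of 1 library.

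**Figure D1:**
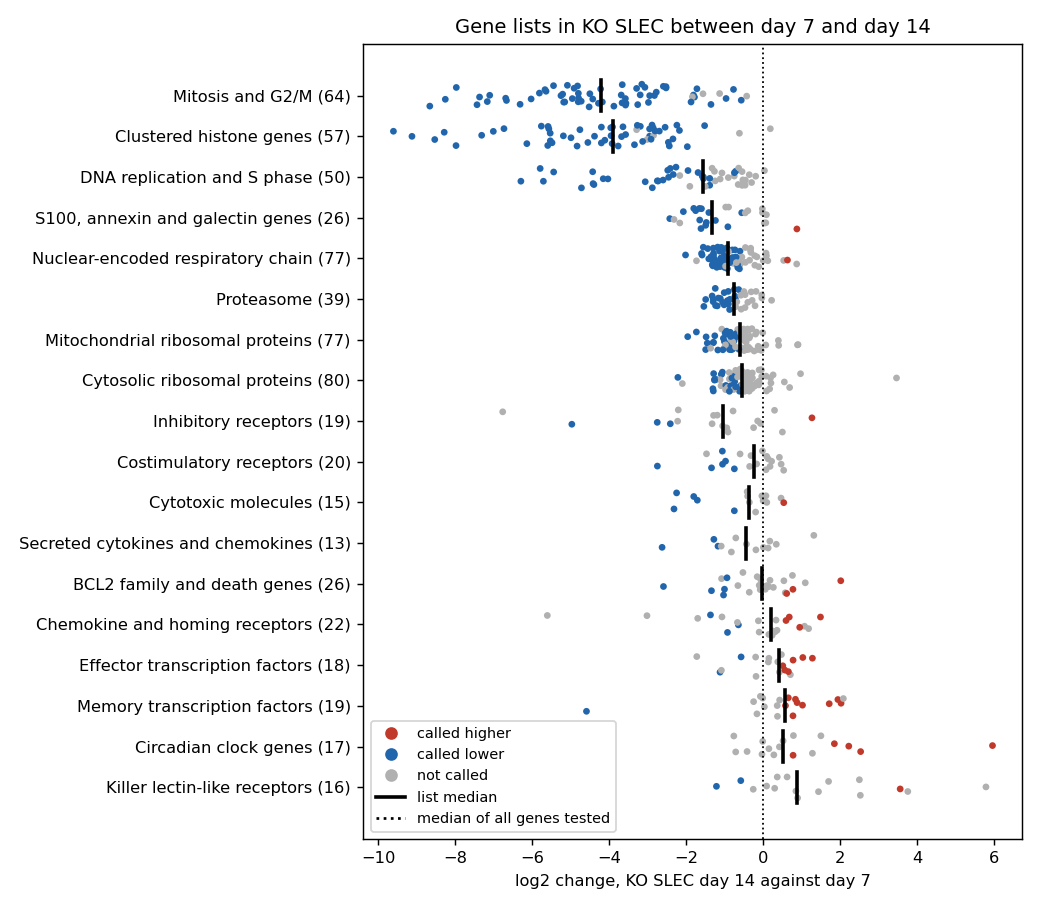
Log2 change between day 7 and day 14 in KO SLEC for each tested member of 18 gene lists (rows, with the number of members tested); points are genes, coloured by call, black bars are list medians and the dotted line is the median of all genes tested. Mitosis, histone and S phase genes have the lowest list medians, at -4.21, -3.92 and -1.57.

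Genes of mitosis and of the G2 phase fell most uniformly. Of the 64 on the list, all tested, 60 were called lower and none higher, with a median log2 change of -4.21. The 2 day 7 libraries held 6291 and 6329 CPM over these genes and the 2 day 14 libraries 1009 and 1046 CPM, close to the 939 and 964 CPM of KO MPEC. Leaving out any 1 of the 4 KO SLEC libraries left between 48 and 55 of the genes called lower. The 4 that were not called were Pttg1, Cks2, Smc2 and Ncapd2, and each had a negative log2 change.

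Many cell cycle promoters carry a CHR, a short element bound by the DREAM and MuvB complexes, often close to a CCAAT box bound by NF-Y. The RefSeq promoter table (GRCm38.p6) held a window from 250 bases before to 50 bases after the start for 49 of the 60 genes called lower. The CHR letters TTTGAA, searched on both strands, occurred in 36 of the 49 windows (73.5%), against 12.2% of the 9527 windows of all genes tested. The letters CCAAT, also on both strands, occurred in 71.4% of the 49 windows and in 39.4% of all. S phase genes called lower differed from this: 1 of their 23 windows (4.35%) held the CHR letters and 65.2% held CCAAT. A match of letters is a description and not evidence of binding. The following 4 stretches of 90 bases end just before the earlier of the RefSeq and GENCODE starts and are shown because both sets of letters lie together near the start of genes that fell; capitals mark CHR and CCAAT letters on either strand.
Cdc20: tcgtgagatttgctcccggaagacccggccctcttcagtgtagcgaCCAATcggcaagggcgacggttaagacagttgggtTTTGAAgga
Top2a: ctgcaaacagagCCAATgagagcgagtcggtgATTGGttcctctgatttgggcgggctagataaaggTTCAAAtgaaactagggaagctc
Cdk1: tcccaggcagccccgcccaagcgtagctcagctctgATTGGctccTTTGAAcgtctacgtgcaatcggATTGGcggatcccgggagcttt
Kif11: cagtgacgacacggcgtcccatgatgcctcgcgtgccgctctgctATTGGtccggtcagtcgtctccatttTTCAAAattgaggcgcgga
These stretches lie at chr4:118437353-118437442 for Cdc20, chr11:99024190-99024279 for Top2a, chr10:69352939-69353028 for Cdk1 and chr19:37376292-37376381 for Kif11, the first 3 on the minus strand. The 4 genes were chosen for their letters after their values were seen. Few genes of the list held both sets of letters in such a stretch of 90 bases, so these 4 are not typical of the 49 windows.

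All 4 of these genes fell. Cdc20, the activator of the anaphase-promoting complex, stood at 25.4 and 28.6 CPM on day 7 and 1.52 and 2.20 on day 14. Top2a, the topoisomerase that untangles replicated chromosomes, stood at 444 and 503 CPM on day 7 and 33.3 and 41.8 on day 14, a log2 change of -3.67 (SE 0.43, edgeR adjusted p = 7.93e-04). In each gene both day 7 libraries lay far above both day 14 libraries, and some separation of the days held for every called gene. Cdk1, the kinase that drives entry into mitosis, stood at 39.05 and 58.1 CPM on day 7 and 4.25 and 3.71 on day 14. Kif11, the motor that separates spindle poles, stood at 155 and 176 CPM on day 7 and 7.08 and 7.28 on day 14, and its adjusted p reached 0.0509 without day 14 replicate 2.

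The 15 largest falls among well-expressed genes included 6 of the mitosis list and also clustered histone genes. The abundant Mki67, the proliferation antigen Ki-67, stood at 1246 and 956 CPM on day 7 and 23.3 and 57.3 on day 14 and changed by -4.81 on the log2 scale (SE 0.66, edgeR adjusted p = 0.00407). Birc5, which encodes the chromosomal passenger survivin, stood at 77.7 and 71.9 CPM on day 7 and 0.202 and 0.275 on day 14, from 1750 counts to 4, with a log2 change of -8.26 (SE 0.78). The day 14 levels of Birc5 were at or under the level of 3 counts in a library. Espl1, the protease separase, had 1221 counts on day 7 and 2 on day 14, a ratio of 451 with a 95% exact counting interval of 124 to 3726. Hmmr, a spindle-associated hyaluronan receptor, stood at 52.8 and 70.6 CPM on day 7 and 0.304 and 0.137 on day 14 and Nusap1, which binds spindle microtubules, at 54.4 and 71.6 CPM on day 7 and 0 and 0.825 on day 14. Ube2c, a ubiquitin-conjugating enzyme of mitotic exit, stood at 45.1 and 55.5 CPM on day 7 and 0.304 and 0.275 on day 14, and the mitotic cyclin gene Ccnb2 at 95.2 and 92.96 CPM on day 7 and 0.506 and 0.825 on day 14. Day 14 values of these genes, like those of KO MPEC, were far under day 7; in KO MPEC Mki67 stood at 28.95 and 34.3 CPM and Ccnb2 at 1.23 and 1.34 CPM. Kif2c, Shcbp1, Mxd3 and Pclaf, which were named by the size of their fall alone, changed by -6.67, -7.08, -6.69 and -7.02 on the log2 scale.

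DNA replication genes fell in part. Of 50 tested, 29 were called lower and none higher, with a median log2 change of -1.57, and without 1 KO SLEC library between 4 and 14 were called lower. Cdc6, which loads the replicative helicase, stood at 36.8 and 31.4 CPM on day 7 and 0.506 and 0.825 on day 14, and the S phase cyclin gene Ccne2 at 22.9 and 20.6 CPM on day 7 and 1.01 and 0.550 on day 14. The day 14 values of Cdc6 and Ccne2 were a small fraction of those of day 7 in both libraries. Uhrf1, which guides maintenance DNA methylation, stood at 76.4 and 70.2 CPM on day 7 and 3.24 and 3.57 on day 14 with an edgeR adjusted p of 0.0407. The call of Uhrf1 was lost in 10 of the 12 omissions of 1 library, those of each KO SLEC library included, and without the low-count filter. Mcm10 changed by -6.30 on the log2 scale (SE 1.49). Cdc6, Ccne2 and Mcm10 lost their calls without day 14 replicate 2, Cdc6 and Mcm10 also without day 14 replicate 1 and Mcm10 without day 7 replicate 1, with adjusted p up to 0.132, 0.0518 and 0.227.

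Clustered histone genes, which supply nucleosomes for newly made DNA, fell as a block. Of 57 tested among 70 in the table, 52 were called lower and none higher, with a median log2 change of -3.92. Hist1h3b stood at 162 and 138 CPM on day 7 and 0.911 and 0.137 on day 14. Hist1h2bk had 1090 counts on day 7 and 2 on day 14, a ratio of 402 with a 95% exact counting interval of 111 to 3326. Hist1h2ah had 196 counts on day 7 and none on day 14, at least 48.2-fold lower when the day 14 group is set to 3 counts in all. Histone genes are near-identical to each other, so the split of reads between single members is uncertain.

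Regulators of the non-dividing state changed in both directions. Of 23 tested genes of cell cycle inhibition and quiescence, 5 rose and 2 fell, with a median log2 change of 0.19. Foxo3, a transcription factor that restrains growth, rose from 52.2 and 72.9 to 138 and 197 CPM (1.42 on the log2 scale, SE 0.22). Txnip, an inhibitor of glucose uptake, rose from 327 and 335 to 674 and 719.7 CPM, by 1.08 on the log2 scale (SE 0.15, edgeR adjusted p = 1.25e-04). In both genes the 2 libraries of a day were closer to each other than to those of the other day. Klf2, a quiescence and trafficking factor, rose from 417 and 512 to 779.9 and 803 CPM. The inhibitor gene Cdkn2c, which is itself transcribed in dividing cells, fell from 19.4 and 13.6 to 1.11 and 2.34 CPM. The KLF family, with 3 of 12 higher and none lower, included Klf2 and Klf3; the call of Klf3 was lost without day 14 replicate 2 (adjusted p = 0.0566).

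**Figure D2:**
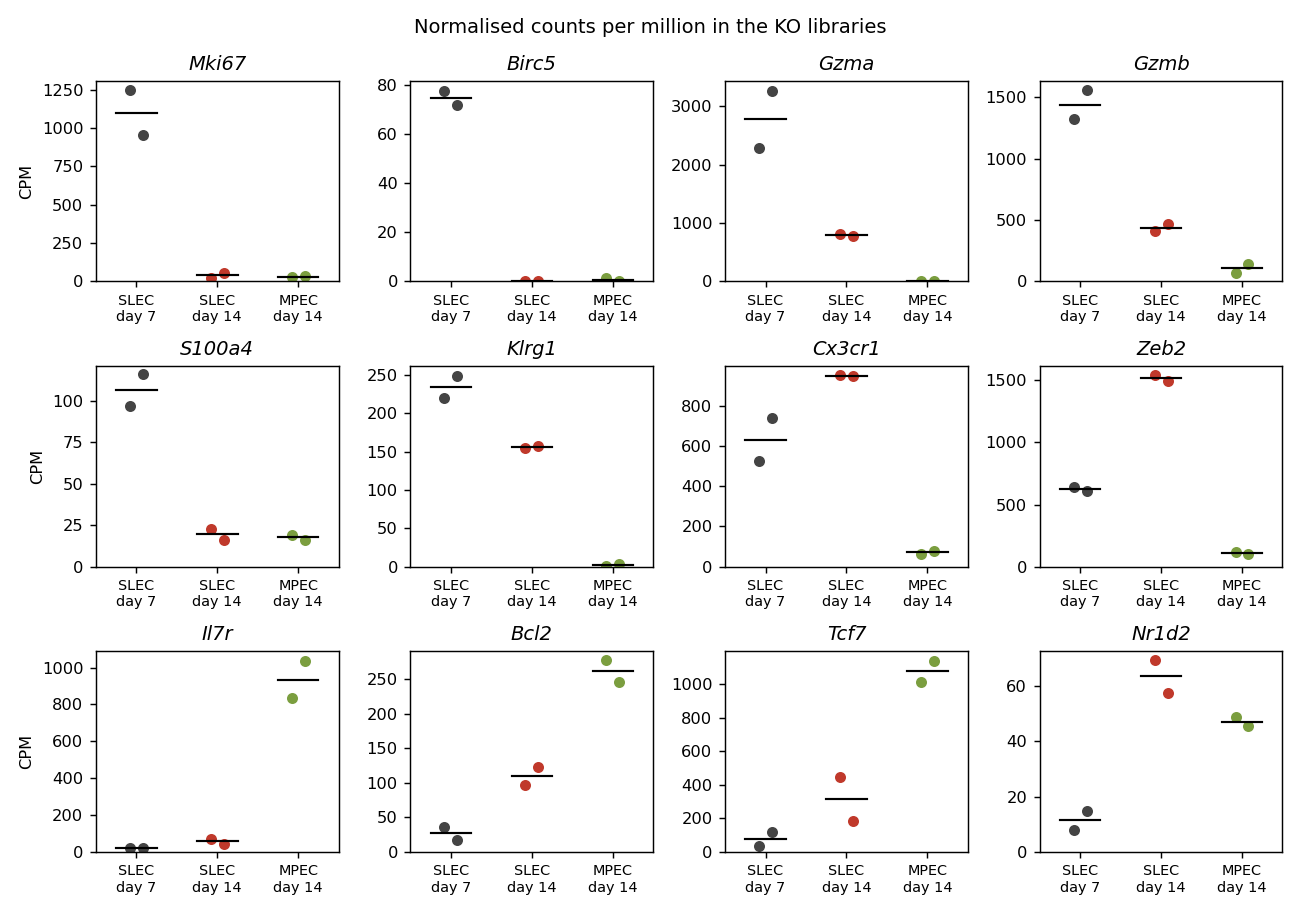
CPM of 12 genes in the 2 libraries each of KO SLEC on day 7, KO SLEC on day 14 and KO MPEC on day 14; points are libraries and bars are group means, on linear axes that start at 0. Mki67, Birc5, Gzma, Gzmb and S100a4 are lower on day 14 than on day 7, and Zeb2, Bcl2 and Nr1d2 are higher; Tcf7 libraries of one day lie far apart.

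Effector molecules fell selectively. Of 15 tested cytotoxic genes, 5 were called lower and 1 higher. Gzma, the granzyme with tryptase activity, stood at 2276 and 3265 CPM on day 7 and 806 and 775 on day 14, a log2 change of -1.81 (SE 0.26, edgeR adjusted p = 7.42e-04). Gzmb, the granzyme that activates caspases, stood at 1325 and 1559.6 CPM on day 7 and 411 and 467 on day 14. Both granzymes stayed above KO MPEC, where Gzma stood at 4.52 and 8.72 CPM and Gzmb at 70.3 and 144 CPM. Gzmk fell from 152 and 193 to 40.5 and 31.1 CPM, and Serpinb6b, a protease inhibitor of the granzyme-inhibitor family, from 176 and 263 to 42.3 and 45.5 CPM. Prf1, the pore-forming perforin, moved the other way, from 256 and 294 to 385 and 409 CPM (0.53 on the log2 scale, edgeR adjusted p = 0.049). The Prf1 call was lost when any 1 KO SLEC library was left out, with adjusted p up to 0.242, and in the fit with the replicate number as a block. The call of Gzmb was lost without day 7 replicate 2 or either day 14 library (adjusted p up to 0.0734).

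Of 13 tested cytokine and chemokine genes, 3 fell and none rose. Tnf fell from 8.11 and 11.8 to 1.82 and 1.24 CPM (-2.63 on the log2 scale, SE 0.51). Ifng fell from 35.4 and 27.04 to 13.7 and 14.2 CPM and Ccl3, a chemokine of activated T cells, from 14.1 and 9.49 to 4.05 and 6.05 CPM. In WT SLEC the log2 changes of Tnf, Ifng and Ccl3 were 0.08, -0.35 and -0.09, and the main edgeR fit called the difference between genotypes for none of them. For Tnf the difference was called by DESeq2 (adjusted p = 0.0115) and by edgeR without the low-count filter (adjusted p = 0.0191). The calls of Ifng and Ccl3 in KO were lost without day 7 replicate 1 or either day 14 library, with adjusted p up to 0.118 and 0.273.

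The S100, annexin and galectin list holds calcium-binding and cytoskeletal genes known to be high in activated T cells. Of its 26 members, 14 were lower and 1 higher. The median log2 change was -1.33, or -1.11 with a gene at 0 in one group set to its bound. Leaving out 1 KO SLEC library gave medians from -1.46 to -1.05, with fewer members called lower each time. S100a4 stood at 96.6 and 116 CPM on day 7 and 22.6 and 16.2 on day 14, a log2 change of -2.43 (SE 0.23, edgeR adjusted p = 4.02e-06). Crip1, a LIM-domain protein, fell from 272 and 312 to 72.4 and 65.3 CPM and S100a10 from 1074 and 1591 to 492 and 349 CPM. KO MPEC held 19.1 and 16.3 CPM of S100a4, between the day 14 values, and 106 and 123 CPM of Crip1, above them. Lgals3, which encodes galectin-3, fell from 122 and 129 to 36.6 and 37.7 CPM, a call that was lost without any 1 KO SLEC library (adjusted p up to 0.14) and with the exon-length offset described below (adjusted p = 0.0517). The exception was Ahnak, a giant scaffold protein, which rose from 5906 and 7073 to 9141 and 14590.5 CPM; its call was lost without either day 7 library, without day 14 replicate 2 (adjusted p = 0.292) and with the same offset.

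Of 18 tested transcription factors of the effector programme, 6 rose and 2 fell, with a median log2 change of 0.40. Leaving out 1 KO SLEC library gave medians from -0.12 to 0.46, so the sign of the median depended on the library. Zeb2, which drives terminal effector differentiation, stood at 644 and 612 CPM on day 7 and 1542 and 1495 on day 14, a log2 change of 1.27 (SE 0.23, edgeR adjusted p = 0.00167), against 114 and 97.8 CPM in KO MPEC. Runx1 rose from 132 and 124 to 235 and 285 CPM, and Stat4, the IL-12 signal transducer, from 149 and 163 to 212 and 277 CPM, a call lost without day 7 replicate 1 or day 14 replicate 2 (adjusted p up to 0.164). Tbx21, which encodes T-bet, stood at 354 and 449 CPM on day 7 and 394 and 484 on day 14 and was not called. Its libraries of the 2 days overlapped. Batf, an AP-1 factor of activated T cells, fell from 47.2 and 56.2 to 24.3 and 22.8 CPM. Id2, the inhibitor of E proteins that supports effector cells, stood at 445 and 391 CPM on day 7 and 335 and 223 on day 14, a log2 change of -0.58 (edgeR adjusted p = 0.0353), and was not called without day 7 replicate 1, without day 7 replicate 2 or without day 14 replicate 2 (adjusted p up to 0.37). Id2 was the 1 called gene of the 5 tested in the Id and E protein family.

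Of 19 memory-associated transcription factor genes, 9 rose and 1 fell, with a median log2 change of 0.57 (0.25 with the exon-length offset), beside backgrounds of 7.70% and 9.50% over all genes. Bach2, a repressor of effector genes, stood at 9.22 and 11.02 CPM on day 7 and 41.2 and 35.3 on day 14, a log2 change of 1.94 (SE 0.24, edgeR adjusted p = 6.02e-05). Bcl6, a repressor of Prdm1, stood at 6.10 and 7.55 CPM on day 7 and 32.5 and 21.4 on day 14 (2.02, SE 0.30). Bach2 and Bcl6 kept their calls without any 1 library. Foxp1, which holds T cells in quiescence, rose from 144 and 165 to 312 and 313 CPM, Klf3 from 400.3 and 411 to 672 and 818 CPM and Zeb1 from 41.1 and 28.98 to 60.8 and 65.4 CPM. Lef1, a partner of the Wnt pathway, rose from 159 and 142 to 294 and 695 CPM. Tcf7, which encodes TCF1, stood at 36.5 and 115 CPM on day 7 and 446 and 183 on day 14, a log2 change of 2.08 with an SE of 0.68, and was not called by edgeR; its 2 libraries of each day lay more than 2-fold apart, and DESeq2 called it (adjusted p = 0.0154). Even the higher day 14 library of Tcf7 lay under the 1015 and 1142 CPM of KO MPEC. Myb, a factor of self-renewing T cells, fell from 29.1 and 27.96 to 0.607 and 1.92 CPM, while KO MPEC held 38.3 and 25.1 CPM. Eomes stood at 72.2 and 108 CPM on day 7 and 133 and 32.98 on day 14, with day 14 values on both sides of those of day 7. Calls of Klf3, Zeb1, Lef1 and Myb were each lost in at least 1 omission of a KO SLEC library, with adjusted p up to 0.0566 (without day 14 replicate 2), 0.0629 (also day 7 replicate 2), 0.0915 (either day 7 library) and 0.159 (any of the 4).

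The 10 markers of each subset moved to different degrees. SLEC markers summed to 6371 and 7935 CPM on day 7 and to 5618 and 5576 CPM on day 14, against 997 and 1239.5 CPM in KO MPEC, and 4 of the 10 rose and 4 fell. MPEC markers summed to 507 and 598 CPM on day 7 and to 1172 and 1183 CPM on day 14, against 3218 and 3460 CPM in KO MPEC, and 3 rose and 2 fell. Most of the day 14 sums came from Tcf7 and Lef1, whose day 14 libraries differed in opposite directions, so the closeness of the sums does not hold for these members. Tcf7 was not called by edgeR, and the call of Lef1 was lost without either day 7 library. Klrg1 changed by -0.59 on the log2 scale (SE 0.19, edgeR adjusted p = 0.0458), and this call was lost when any 1 KO SLEC library was left out (adjusted p up to 0.222) and in the fit with the replicate number as a block. Il7r rose by 1.48 (SE 0.25, edgeR adjusted p = 8.33e-04) and kept its call without any 1 library. On the first principal component, which held 39.0% of the variance of the 2000 most variable genes, day 7 libraries stood at 56.0 and 56.3, day 14 libraries at -16.5 and -12.1 and KO MPEC libraries at -51.2 and -51.5.

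Surface receptors changed one by one. Of 22 chemokine and homing receptors, 4 rose and 3 fell. S1pr5, a receptor for sphingosine-1-phosphate found on effector cells, rose from 247 and 307 to 547 and 519 CPM, and S1pr1, which allows exit from lymphoid tissue, from 303 and 332 to 458 and 554 CPM. Cx3cr1, the fractalkine receptor of circulating effector cells, stood at 525 and 738 CPM on day 7 and 951 and 946 on day 14 (0.59, SE 0.18). The day 7 values of Cx3cr1 lay below those of day 14 but were spread, and its call was lost in 3 of the 4 omissions of a KO SLEC library, all but that of day 7 replicate 2 (adjusted p up to 0.275). Cxcr4 rose from 5.36 and 13.2 to 27.3 and 21.9 CPM. Among receptors for inflammatory chemokines, Cxcr3 fell from 68.9 and 82.04 to 32.8 and 24.7 CPM and Ccr2 from 417 and 449 to 221 and 233 CPM. The call of Ccr2 was kept without any 1 library, and that of Cxcr3 was lost without any 1 KO SLEC library (adjusted p up to 0.18). S1pr1 was not called without day 14 replicate 2 (adjusted p = 0.104), S1pr5 without day 7 replicate 1 or either day 14 library (up to 0.109) and Cxcr4 without day 7 replicate 1 or day 14 replicate 1 (up to 0.0841).

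Of 16 integrin genes, 5 fell and 2 rose. Itgax, the integrin chain CD11c, stood at 528 and 462 CPM on day 7 and 132 and 150.2 on day 14, a log2 change of -1.81 (SE 0.24). Itgax made up nearly all of the dendritic cell marker sum, of which Batf3, Cd209a, Clec9a, Flt3, Siglech and Xcr1 had no count in any KO SLEC library. Itgam, the chain CD11b, fell from 60.5 and 58.9 to 25.9 and 26.9 CPM and the collagen-binding chain gene Itga2 from 18.7 and 20.4 to 1.92 and 7.42 CPM. Itgal, the chain of LFA-1, rose from 1119 and 1342 to 1720.3 and 2046 CPM. Its call was lost without day 7 replicate 1 or day 14 replicate 2 (adjusted p up to 0.162), and that of Itga2 without day 14 replicate 1 (adjusted p = 0.0886). Monocyte and macrophage markers summed to 45.3 and 33.5 CPM on day 7 and 19.7 and 11.8 CPM on day 14.

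Of 16 killer lectin-like receptor genes, 1 rose and 2 fell. Klra9, of the Ly49 family, rose from 1.19 and 1.22 to 16.3 and 11.8 CPM, but its near-identical paralogs make its level uncertain and its adjusted p was 0.0523 without day 7 replicate 1. Klrd1, which encodes CD94, fell from 161 and 196 to 86.7 and 65.7 CPM. Klrb1c, the NK1.1 antigen gene, stood at 7.07 and 26.7 CPM on day 7 and 98.5 and 82.6 on day 14 and was not called by edgeR, but was called by DESeq2 (adjusted p = 0.0327) and in the edgeR fit of the compared libraries alone.

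Inhibitory and costimulatory receptors were mostly lower or not called. Of 19 inhibitory receptor genes, 3 fell and 1 rose, with a median log2 change of -1.06. Havcr2, which encodes TIM-3, fell from 121 and 80.7 to 12.1 and 27.1 CPM and Tigit from 33.9 and 28.2 to 4.55 and 4.67 CPM. Ctla4 had 94 counts on day 7 and 2 on day 14, a ratio of 34.7 with a 95% exact counting interval of 9.34 to 291. These calls were lost without day 7 replicate 1 or either day 14 library, that of Havcr2 also without day 7 replicate 2 and with the replicate number as a block (adjusted p over the omissions up to 0.213 for Havcr2, 0.089 for Tigit and 0.116 for Ctla4). Entpd1, the ectoenzyme CD39, rose from 30.9 and 24.4 to 49.5 and 85.3 CPM. Pdcd1, which encodes PD-1, stood at 15.5 and 26.2 CPM on day 7 and 11.1 and 8.25 on day 14 and was not called by edgeR, but was called by DESeq2 (adjusted p = 0.0373) and, in edgeR, with the replicate number as a block and without the low-count filter. Of 20 costimulatory receptor genes, 6 fell and none rose. Cd48 fell from 290.3 and 377 to 169 and 149 CPM, Sh2d1a, the adaptor SAP, from 70.7 and 100 to 39.4 and 26.7 CPM, and Cd27 from 104 and 113 to 67.5 and 40.7 CPM. Among these, Cd48 and Sh2d1a kept their calls without any 1 library. Tnfrsf9, the receptor 4-1BB, fell from 9.45 and 7.86 to 0.911 and 1.79 CPM. Of 20 genes of the T cell receptor complex, 3 fell and none rose; Cd3d fell from 241 and 323 to 165 and 116 CPM, and Trbc1, one of the receptor's beta constant genes, from 121 and 115 to 53.1 and 38.1 CPM. Entpd1, Cd27 and Cd3d lost their calls without day 7 replicate 2 or day 14 replicate 2 (adjusted p up to 0.118, 0.113 and 0.0787), and Tnfrsf9 without day 7 replicate 1 or either day 14 library (up to 0.15).

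Cytokine receptors changed little as a list, with 2 of 29 higher and 1 lower. Il7r rose as given above. Tgfbr2, a receptor chain for TGF-beta, rose from 201 and 185 to 325 and 343 CPM, and Il12rb1 fell from 51.4 and 36.9 to 20.2 and 30.6 CPM. Signalling and feedback genes had 8 of 28 higher and 2 lower. Ski, a repressor of SMAD-dependent transcription, stood at 87.8 and 98.3 CPM on day 7 and 201 and 208 on day 14, a log2 change of 1.14 (SE 0.14, edgeR adjusted p = 6.02e-05). Smad3, the signal transducer of TGF-beta, rose from 165 and 189.6 to 281 and 289 CPM. Smad7, an inhibitor of the same pathway, stood at 67.2 and 75.3 CPM on day 7 and 133 and 159.8 on day 14 (edgeR adjusted p = 0.0388), and its call was lost without any 1 KO SLEC library (adjusted p up to 0.22). Socs3, which inhibits signals through gp130 and STAT3, fell from 7.66 and 7.35 to 0.607 and 0.275 CPM. KO MPEC held 27.9 and 42.4 CPM of Socs3. Jak3, the kinase of the common gamma chain, fell from 119 and 120.3 to 72.95 and 77.2 CPM. Socs3 and Jak3 were not called without either day 14 library (adjusted p up to 0.0811 and 0.0725), nor Il12rb1 without day 7 replicate 1 or day 14 replicate 1 (up to 0.295).

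Survival and death genes were split. Of 26 tested, 3 rose and 5 fell, shares of 11.5% and 19.2% beside 7.70% and 9.50% over all genes tested. With the exon-length offset 1 was called higher and 3 lower. Bcl2, the anti-apoptotic protein that IL-7 maintains, stood at 36.6 and 16.7 CPM on day 7 and 96.8 and 124 on day 14, a log2 change of 2.01 (SE 0.27, edgeR adjusted p = 3.03e-04), against 278 and 246 CPM in KO MPEC. Both day 14 values of Bcl2 lay above both of day 7, as in every gene called higher, and the call was kept without any 1 library. Among genes that promote death, Bak1 fell from 91.3 and 94.7 to 43.2 and 49.3 CPM and Fas from 26.6 and 30.3 to 15.3 and 14.02 CPM. Bcl2a1b, an anti-apoptotic gene with near-identical copies, fell from 6.40 and 9.49 to 1.72 and 0.687 CPM. Cflar, an inhibitor of caspase-8, rose from 142 and 117 to 186 and 209 CPM and Casp9 from 13.4 and 12.96 to 20.6 and 24.6 CPM. The calls of Fas and Casp9 were lost without any 1 KO SLEC library (adjusted p up to 0.181 and 0.268), those of Cflar and Bcl2a1b without day 7 replicate 2 or day 14 replicate 2 (up to 0.137 and 0.0974) and that of Bak1 without day 14 replicate 1 (0.0638). With the exon-length offset Cflar had an adjusted p of 0.231.

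Clock genes rose without exception among those called. Of 17 tested, 5 rose and none fell, with a median log2 change of 0.51. Nr1d2, which encodes the repressor REV-ERB beta, stood at 8.03 and 14.7 CPM on day 7 and 69.5 and 57.4 on day 14, a log2 change of 2.53 (SE 0.29, edgeR adjusted p = 3.26e-05). Its paralog Nr1d1 had 2 counts on day 7 and 102 on day 14. Tef, an output factor of the clock, stood at 9.30 and 9.69 CPM on day 7 and 36.8 and 30.9 on day 14 and Per3, a period gene, at 1.04 and 2.04 CPM on day 7 and 6.88 and 6.87 on day 14. In these 4 genes, as in every gene called higher, no day 14 library reached down to a day 7 library. Rora, the activator that competes with REV-ERB and also stands on the effector list, rose from 194 and 198 to 286 and 383 CPM. Rora was not called without day 14 replicate 2 (adjusted p = 0.124), nor Per3 without day 7 replicate 1 or either day 14 library (up to 0.0976). In WT SLEC the log2 changes of Nr1d2 and Tef were 1.70 and 1.98. The labels do not give the hour of sampling, so day and time of day cannot be told apart.

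Genes of energy supply and protein turnover fell by less than 1 log2 unit in the median. Nuclear-encoded subunits of the respiratory chain had 50 of 77 members lower and 1 higher, with a median of -0.92. Leaving out 1 KO SLEC library gave medians from -1.09 to -0.74, and the number called varied widely with the library. Cox7a2 and Cox7b, subunits of cytochrome c oxidase, stood at 32.3 and 36.3 CPM on day 7 and 6.78 and 10.4 on day 14 and at 119 and 138 CPM on day 7 and 45.9 and 37.9 on day 14. Cox7b changed by -1.61 (SE 0.18, edgeR adjusted p = 2.54e-05). The 1 member that rose was Sdha, the catalytic subunit of succinate dehydrogenase, from 138 and 181 to 243 and 248 CPM. Of 7 tested genes of the mitochondrial genome 2 fell, mt-Co1 from 3007 and 3784 to 2041 and 2294 CPM and mt-Nd5 from 2036 and 2394 to 1369.7 and 1519.8 CPM. The calls of both were lost without day 7 replicate 2 or either day 14 library (adjusted p up to 0.258 and 0.152), and that of Sdha without day 7 replicate 1 or either day 14 library (up to 0.149). Proteasome genes had 24 of 39 members lower and none higher, with a median of -0.77. The same omissions gave medians from -1.04 to -0.65, and the number called again varied widely. Psmb9, a catalytic subunit of the immunoproteasome, fell from 89.4 and 93.1 to 36.8 and 37.1 CPM, and the regulatory subunit genes Psmd8 and Psmd14 from 171 and 201 to 79.1 and 77.1 CPM and from 86.6 and 139.9 to 46.2 and 44.9 CPM.

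Mitochondrial ribosomal proteins had 28 of 77 members lower and none higher, with a median of -0.60. Cytosolic ribosomal proteins had 22 of 80 lower and none higher, with a median of -0.55. Leaving out 1 KO SLEC library gave medians from -0.74 to -0.54 and from -0.75 to -0.43. The number of members called in both lists varied widely with the library left out. Mrpl54 fell from 29.3 and 45.6 to 11.9 and 10.03 CPM, and Mrps16 from 28.2 and 37.3 to 13.3 and 9.34 CPM. Rplp0, a protein of the ribosomal stalk, fell from 446 and 592 to 233 and 196 CPM, and Rps26 from 188 and 229.7 to 97.1 and 71.5 CPM. Ribosomal protein genes have many processed copies in the genome, so their single levels are uncertain. Genes of ribosome biogenesis did not follow: 5 of 40 rose and 1 fell. Polr1a, the large subunit of RNA polymerase I, stood at 38.5 and 42.96 CPM on day 7 and 92.4 and 88.6 on day 14, a log2 change of 1.16 (SE 0.15). Utp20, a processing factor of the small ribosomal subunit, rose from 31.2 and 33.9 to 54.9 and 69.1 CPM, and Nhp2, a protein of small nucleolar particles, fell from 48.3 and 53.8 to 23.5 and 28.7 CPM. Tfrc, the transferrin receptor, was the 1 called gene of 12 for amino acid and iron uptake and fell from 27.1 and 25.3 to 6.98 and 8.66 CPM. Glycolysis had 1 of 21 higher and 2 lower, among them Ldha with 179.7 and 218 CPM on day 7 and 126 and 95.9 on day 14. Cholesterol and fatty acid synthesis had 2 of 31 higher and 3 lower. Mrps16, Utp20 and Ldha were not called without day 14 replicate 2 (adjusted p = 0.0542, 0.0612 and 0.118), Ldha also without day 7 replicate 2, and Nhp2 not without day 14 replicate 1 (0.0584).

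Single chromatin and RNA genes moved in both directions. Of 26 DNA methylation and Polycomb genes, 3 rose and 3 fell. These shares were 11.5% each, near the 7.70% and 9.50% over all genes tested, so the list as a whole did not stand out. Ezh2, the Polycomb methyltransferase of dividing cells, fell from 138 and 146 to 63.1 and 52.5 CPM, and its partner gene Phf19 from 11.9 and 14.1 to 4.76 and 4.12 CPM. Cbx7, a reader of the Polycomb mark, rose from 45.2 and 33.4 to 85.6 and 71.2 CPM. Phf19 and Cbx7 lost their calls without day 7 replicate 2 or day 14 replicate 1, and Phf19 also without day 14 replicate 2 (adjusted p up to 0.114 and 0.0519). Of 17 abundant long non-coding RNAs, 1 rose and 5 fell. Gas5 and Snhg1, hosts of small nucleolar RNAs, fell from 95.2 and 120.4 to 59.2 and 47.8 CPM and from 18.9 and 19.6 to 5.87 and 3.57 CPM. Immediate early genes had 2 of 29 higher and none lower, type I interferon response genes 1 of 40 higher and 3 lower, and GIMAP genes 1 of 9 lower. The interferon and GIMAP shares were near the background or rest on 1 gene.

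The largest rises among well-expressed genes were not on the lists for the most part. Rab6b, a small GTPase of Golgi transport, stood at 1.79 and 2.04 CPM on day 7 and 24.6 and 21.4 on day 14, a log2 change of 3.60 (SE 0.34, edgeR adjusted p = 4.02e-06). Peg13, an imprinted non-coding RNA gene, stood at 6.25 and 5.82 CPM on day 7 and 72.04 and 47 on day 14 (3.31, SE 0.33), and Kcnj8, a potassium channel gene, at 25.1 and 16.02 CPM on day 7 and 152 and 148 on day 14. The 2 libraries of each day lay close together for Rab6b and Kcnj8. Zbtb20, a zinc finger repressor, rose from 12.2 and 10.2 to 56.2 and 39.99 CPM and Camk2n1, an inhibitor of CaM kinase II, from 3.42 and 3.67 to 18.8 and 35.3 CPM. Kcnj8 and Camk2n1 were low in KO MPEC, at 8.52 and 5.56 and 2.57 and 7.48 CPM, and Rab6b and Zbtb20 were near their day 14 SLEC values there, at 20.6 and 18.9 and 74.3 and 49.6 CPM. Nt5e, the ectoenzyme CD73, stood at 3.35 and 10.1 CPM on day 7 and 33.5 and 91.9 on day 14 (edgeR adjusted p = 0.0447) and Dtx4, a ubiquitin ligase of the Notch pathway, at 0.372 and 0.918 CPM on day 7 and 10.2 and 72.3 on day 14; the day 14 libraries of both lay far apart, and both calls were lost when either day 7 library was left out (adjusted p up to 0.204 and 0.144), that of Nt5e also without day 14 replicate 2 and with the replicate number as a block.

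Calls were related to gene length. The genes called higher had a median exon length of 7185 bases, those called lower 3060 bases and all genes tested 3747 bases. Among 5 bins of equal size by exon length, in the shortest 1.63% were called higher and 11.2% lower, and in the longest 20.5% were called higher and 4.95% lower. The median log2 change went from -0.25 in the shortest to 0.23 in the longest bin, and in WT SLEC from -0.19 to 0.16. Mitochondrial ribosomal RNA took 17.8 and 19.5% of the counts on day 7 and 10.2 and 9.56% on day 14. Of 868 genes of the annotation class TEC, transcripts with little experimental evidence, 73 were called higher and 2 lower. When a length-dependent offset was added to the fit, 1908 genes were called, 754 higher and 1154 lower, of which 1695 were among the 2487. Of the genes called lower before, that fit also called lower 60 of the mitosis list, 50 of the histone list, 12 of the S100 list, 35 of the respiratory chain, 19 of the proteasome, 15 mitochondrial and 14 cytosolic ribosomal proteins and 0 of the mitochondrial genome. Of those called higher before, it called 7 memory factors and 4 effector factors. Among the 123 called genes named here, 16 lost their call: Ifng, Ccl3, Lgals3, Ahnak, Id2, Rora, Klrg1, Cxcr3, Smad7, Fas, Casp9, Cflar, Havcr2, mt-Co1, mt-Nd5 and Nt5e. Whether the length relation comes from the RNA, the libraries or the cells was not tested.

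**Figure D3:**
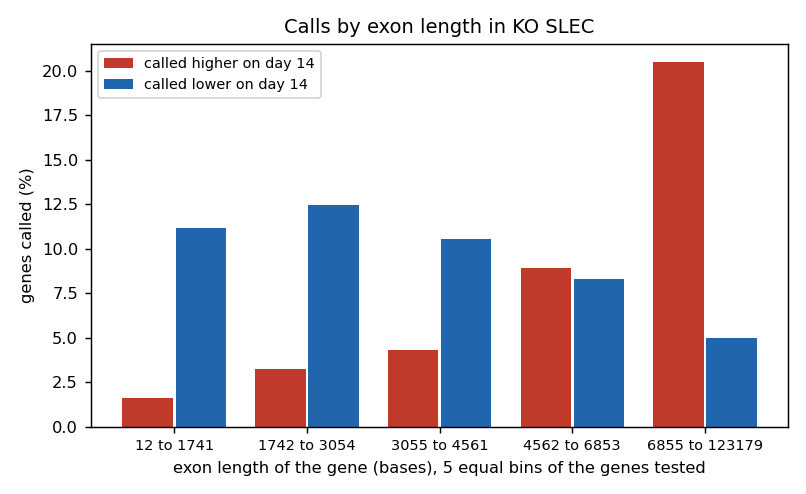
Share of tested genes called higher (red) or lower (blue) on day 14 in KO SLEC, in 5 equal bins of exon length from short to long. The share called higher is 1.63% in the shortest bin and 20.5% in the longest, and the share called lower is 11.2% and 4.95%.

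The same contrast in WT SLEC, which shares no library with it, asked whether the day change differed by genotype. In WT SLEC 1437 genes (9.94%) were called between the days. Of the 1114 genes that rose in KO SLEC, 95.5% had a positive log2 change in WT, and of the 1373 that fell, 95.1% had a negative one. The medians were 0.85 in KO and 0.47 in WT for the genes called higher in KO, and -1.18 and -0.74 for those called lower, where the KO values are inflated by the choice of genes on them. Across all 14460 genes, which are not independent replicates, the log2 changes had a Pearson r of 0.37 and a Spearman rho of 0.49. The mitosis list had a median of -3.05 in WT and the respiratory chain one of -0.71. WT day 7 libraries differed from each other in cycle genes, with 513 and 1490 CPM of Mki67. WT day 14 libraries held 913 and 3239 CPM of B cell markers, and the part of these values in the comparison of genotypes was not tested.

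The test of the difference between the KO and WT changes called 1 gene of 14460 (0.00692%), Ola1, with 951 genes at an unadjusted p under 0.05. Ola1 encodes an Obg-like ATPase. It stood at 2285 and 2764 CPM on day 7 and 2488 and 3813 on day 14 in KO SLEC, where its log2 change was 0.32 (SE 0.29) and was not called. In WT SLEC it stood at 81.6 and 95.5 CPM on day 7 and 1639 and 1560.2 on day 14. The KO minus WT difference of the log2 change was -3.85 (edgeR adjusted p = 0.0318), and the libraries that stood apart were the 2 of WT day 7. Mtss1 and Fchsd2, which were among the next genes by adjusted p, were not called in the main edgeR fit. Both were called by DESeq2 (adjusted p = 3.18e-05 and 0.00611) and by edgeR without the low-count filter (adjusted p = 3.55e-08 and 0.00614). Mtss1, a membrane-binding actin regulator, stood at 4.69 and 5 CPM on day 7 and 0.304 and 0.275 on day 14 in KO. In WT it stood at 0.636 and 1.61 CPM on day 7 and 3.90 and 14.9 on day 14. For Fchsd2, an endocytosis gene, the log2 changes were -0.12 in KO and 1.17 in WT. The call of Ola1 was lost in 6 of the 12 omissions of a library, among them each KO day 7 library. DESeq2 called 28 genes for the difference, 26 of them with a lower change in KO. Those 26 included the immunoglobulin and B cell genes Ighm, Igkc and Cd79b, the last at -6.77 (DESeq2 adjusted p = 0.0148). The 17 B cell markers had a median log2 change of -1.13 in KO and 5.47 in WT. How far transcripts of other cells in the WT libraries contributed to these calls, that of Mtss1 included, was not tested.

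**Figure D4:**
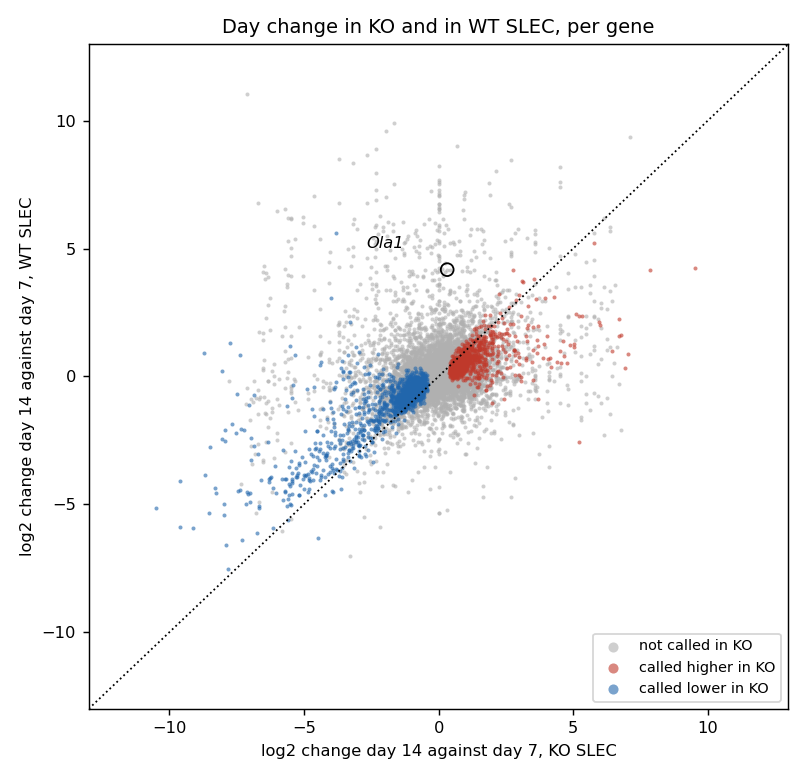
Log2 change between day 7 and day 14 of each tested gene in KO SLEC (x axis) and WT SLEC (y axis), coloured by its call in KO; the dotted line marks equal change and the circle Ola1. Called genes lie mostly in the lower left and upper right parts of the plot, and Ola1 lies at a KO change of 0.32 and a WT change of 4.17.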

How the data were processed

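Bulk RNA-seq libraries were made with a stranded kit for small inputs from OT-I cells sorted directly into lysis buffer, per the labels' protocols. Reads were processed with bcl2fastq and STAR 2.6.1a against GRCm38, per the submitters' processing notes; neither these notes nor the labels name the counting tool, its strand setting or the annotation. The values used are the raw counts per gene that the authors deposited, 1 table for 12 libraries; no other column was left over. Antisense and overlapping genes are therefore uncertain. Of the gene identifiers, 99.5% matched GENCODE M21, which gave gene positions and exon lengths. Symbols and gene types were those of the deposited count table. In it 27 symbols were bare numbers and were replaced through their gene identifiers.

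The counts were tested with edgeR 4.0.16 (R 4.3.3; filterByExpr, TMM, glmQLFit with robust estimation, glmQLFTest, two-sided) in 1 fit of 6 groups, with 6 residual degrees of freedom, and Benjamini-Hochberg adjustment over 14460 genes. A gene is called at an adjusted p under 0.05. CPM are scaled by TMM factors; SE are standard errors of the log2 change. Intervals cover counting error only, and the floor for a group without counts was 3 counts. Alternatives were DESeq2 1.42.0, other size factors, no filter, no mitochondrial genes, a replicate block, the compared libraries alone, each library left out, and, chosen after seeing the data, a length-dependent offset.

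Named genes were the 15 largest rises and falls at a mean log2 CPM of 3 or more, up to 6 called and 3 uncalled genes per list by size and p, the genes of smallest adjusted p for the genotype difference, and 20 genes followed throughout; some genes under this rule are not reported here. The contrast, the 49 gene lists and this rule were chosen with earlier results of these data known, and a list is described by counts and its median, with no set test.

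Replicate numbers were not used as pairs in the main fit. Same-numbered KO SLEC libraries of the 2 days had a correlation of deviations of -0.015. With 2 libraries per group, the deviations within a group mirror each other, so this value cannot decide whether the numbers pair the samples.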

Additional observations from a re-analysis of the deposited data

Results flagged for a closer look

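The difference of the day 14 against day 7 change between KO and WT SLEC was called for Ola1, at -3.85 on the log2 scale, with an edgeR adjusted p of 0.0318 over 14460 genes. Both KO days and both WT day 14 libraries held at least 1560 CPM of Ola1, and the 2 WT day 7 libraries held 81.6 and 95.5 CPM.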

How the results depend on the processing

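The 123 called genes named in the text kept their direction under each alternative that tested them; the 2 mitochondrial genes were not tested without mitochondrial genes. Leaving out 1 library at a time, controls and MPEC included, gave 834 to 2930 called genes, 367 to 1299 higher and 467 to 1631 lower. Calls fell most when a KO SLEC library was left out: 1786 genes without day 7 replicate 1, 1352 without day 7 replicate 2, 1366 without day 14 replicate 1 and 834 without day 14 replicate 2, where the lone library is assumed to vary like the other groups. Of these 123 genes, 67 kept their call in every omission. The calls of Uhrf1, Nt5e, Prf1, Klrg1, Smad7 and Casp9 were lost in 10, 9, 8, 8, 8 and 8 of the 12 omissions, libraries of other groups among them. DESeq2 called 2845 genes, RLE factors 2464 and no filter 2525, against 2487. The difference between KO and WT was called for 28 genes by DESeq2, 109 without the low-count filter, 0 with the length-dependent offset and 0 to 96 when 1 library was left out; the cause was not tested. Of the 7 named genes that were not called, 3 turned sign with the library left out: over the omissions the log2 change ranged from -0.050 to 0.31 for Tbx21, from -1.44 to 0.56 for Eomes and from -0.033 to 0.60 for Ola1 in KO. Depth was lowest in day 14 replicate 2, where 3 counts correspond to 0.412 CPM, so falls below that level are not measured.

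With the replicate number as a block, 2439 genes were called, 1096 higher and 1343 lower. The difference between genotypes was then called for 2 genes, Ola1 and Mtss1. Among the 123, the block ended the calls of Prf1, Klrg1, Havcr2 and Nt5e. The labels do not say whether the numbers pair the libraries.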
